A study of Drosophila melanogaster with 6 samples.

Results

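Ionotropic receptors (IRs) of Drosophila melanogaster were followed in the heads of adult males that had lived alone or in company. The members are the 60 probe sets of the array whose platform annotation gives exactly 1 gene, with a symbol of the form Ir, a number and a letter. They measure 53 genes and were taken from 18769 probe sets that are not controls. Members were sorted by known role into the co-receptors Ir8a, Ir25a and Ir76b (3 probe sets), receptors of the antenna (18 probe sets, 12 genes) and all others (39 probe sets, 38 genes). Single-housed males had spent the 6 days after eclosion at 1 fly per vial, and group-housed males the same 6 days at 10 flies per vial. Flies were frozen in liquid nitrogen in the late afternoon, and total RNA of 20 pooled heads was hybridised per array, with 3 arrays per group that the labels call biological replicates. The strain, and whether all antennae stayed on the frozen heads, are not stated in the labels.

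IRs are ligand-gated cation channels that evolved from the ionotropic glutamate receptors of synapses. A tuning receptor, which recognises the stimulus, joins with a broadly expressed co-receptor to reach the cilium of a sensory neuron. In the antenna they sit mainly in coeloconic sensilla, in the sacculus and in the arista, where they detect acids, amines, temperature and humidity. Most of the remaining family is divergent in sequence and is known, where it is known at all, from taste neurons of the proboscis, pharynx and legs.

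Signals were compared as normalized log2(intensity + 16), where the added 16 sets a floor of 4 on this scale. Probe sets whose mean over the 6 arrays lay below the cutoff of 4.69, the lowest 30% of the array, were given values but no test. All differences are single-housed minus group-housed on that scale, from limma, with the standard error (SE), n = 3 arrays per group, and p-values adjusted by Benjamini-Hochberg across all 13138 probe sets in the fit. Brightness also depends on the probes, so levels were compared between groups for 1 probe set at a time and with the cutoff. Because whole heads were used, fewer cells of a type and less RNA per cell cannot be told apart.

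The IR family was dim in the head. Of the 60 probe sets, 19 passed the cutoff and 41 did not. All 3 co-receptors passed, as did 10 of the 18 antennal probe sets, which covered 10 of the 12 antennal genes. Of the 39 other probe sets 6 passed, so that 32 of these 38 genes had no tested probe set. With the stricter cutoff of 5.46, the 50% mark of the array, 2 co-receptors, 4 antennal probe sets and 0 of the others were left. Just inside the cutoff stood a probe set of Ir92a (mean 4.72) and 1 of Ir21a (4.74), and just outside it 1 of Ir40a (4.68) and that of Ir94b (4.66).

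**Figure D1:**
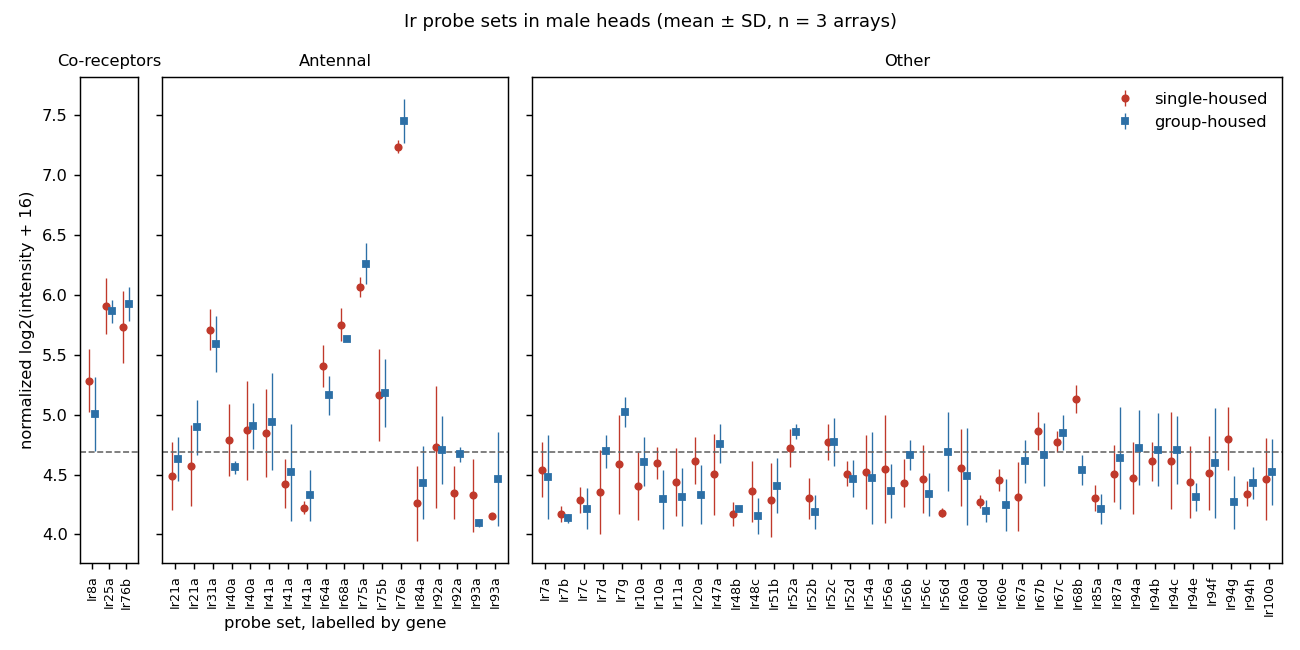
Normalized log2(intensity + 16) of all 60 Ir probe sets (vertical axis), as mean ± SD of 3 single-housed (circles) and 3 group-housed (squares) arrays, in the order of the gene numbers. The dashed line is the cutoff of 4.69; all 3 co-receptors and 10 of 18 antennal probe sets had means above it, against 6 of 39 others.

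No IR passed the threshold for a housing difference. At adjusted p 0.05 limma called 0 of the 19 tested members, against a background of 0.0152% of all probe sets (2 of 13138), and no alternative fit called any, while the count over all probe sets ran from 0 to 135 in those fits. At unadjusted p 0.05 there was 1 member, Ir68b, against 8.24% of all probe sets. The groups did not overlap for 2 members, against 14.2% of all probe sets. Of these, Ir68b was higher in single-housed heads, where 6.23% of all probe sets were higher without overlap, and Ir7g was lower, where 7.95% were. Among the 19 tested members 8 lay above 0 and 11 below, with a median of -0.02, which is also the median of all probe sets tested. Above 0 lay 45.4% of all probe sets tested. The half-width of the 95% intervals ran from 0.25 to 0.64 on the log2 scale. Their ends reached from -0.96 for Ir7g to 0.97 for Ir68b, and only the interval of Ir68b left out 0. For Ir68b, Ir67b, Ir7g and Ir21a the mean of 1 group lay below the cutoff. These members passed it through the other group, so their tests are given as a description.

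Among the co-receptors, Ir25a is the most widely expressed, serving odour, taste, temperature and humidity neurons alike. Its normalized log2 signal was 5.65, 5.97 and 6.11 in single-housed heads and 5.78, 5.96 and 5.85 in group-housed heads. The single-housed values enclosed all group-housed ones, and the difference was 0.05 (SE 0.14, 95% interval -0.28 to 0.38, limma adjusted p 0.957). As deposited, the intensities ran from 37.9 to 52.0 in single-housed heads and from 37.7 to 43.5 in group-housed heads. Without single-housed replicate 3 the difference was -0.05.

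Ir8a is the partner of the acid-sensing receptors of the antenna. Its signal was 4.98, 5.45 and 5.43 in single-housed heads, against 4.92, 5.35 and 4.75 in group-housed heads. A low array occurred in the single-housed group and a high one in the group-housed group, so the groups overlapped. The mean was 5.28 ± 0.26 in single-housed heads and 5.01 ± 0.31 in group-housed heads (SD, n = 3), a difference of 0.28 (SE 0.21, 95% interval -0.20 to 0.76, limma adjusted p 0.763).

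Ir76b serves the amine receptors of the antenna and many taste receptors. It stood at 5.90, 5.39 and 5.91 in single-housed heads and at 6.06, 5.93 and 5.78 in group-housed heads. A single array, single-housed replicate 2, lay below all others, and the other two single-housed arrays lay within the group-housed range. The difference was -0.19 (SE 0.17, 95% interval -0.57 to 0.19, limma adjusted p 0.796), and it was -0.02 without single-housed replicate 2. The co-receptors thus had differences on either side of 0, with a median of 0.05, which was -0.05 without single-housed replicate 3 and -0.07 for the 2 co-receptors left by the 50% cutoff.

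The antennal receptors for acids and related odours gave 4 tested probe sets, 2 above 0 and 2 below. Ir75a, an acetic acid receptor, had signals of 6.03, 6.01 and 6.16 in single-housed heads, against 6.21, 6.45 and 6.13 in group-housed heads. Only the highest single-housed array reached into the group-housed range, and the difference was -0.19 (SE 0.12, limma adjusted p 0.711). Ir75b, its tandem neighbour, was at 5.23, 5.51 and 4.75 in single-housed heads and at 4.88, 5.22 and 5.45 in group-housed heads. These ranges nearly coincided, and the sign of the difference, -0.02, turned under 6 of 15 alternatives.

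Ir64a, the acid sensor of the sacculus, had signals of 5.48, 5.21 and 5.53 in single-housed heads, against 5.33, 5.15 and 5.00 in group-housed heads. Here 2 of the 3 single-housed arrays lay above every group-housed one. The difference was 0.25 (SE 0.16, 95% interval -0.11 to 0.61, limma adjusted p 0.716). Its size depends on the added intensity, with 0.40 for a pseudocount of 1 and 0.14 for 64. Ir31a, a receptor for a keto acid, was at 5.90, 5.61 and 5.61 in single-housed heads and at 5.38, 5.56 and 5.84 in group-housed heads, with a difference of 0.12 (SE 0.16). The highest single-housed array lay above all others and 2 group-housed arrays lay below all single-housed ones, with the groups overlapping, and the difference was 0.02 or 0.01 when replicate 1 of the single-housed or of the group-housed arrays was left out.

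Ir84a detects aromatic food odours and is known for promoting male courtship. Its probe set lay below the cutoff, at 4.10, 4.62 and 4.06 in single-housed heads and 4.16, 4.39 and 4.76 in group-housed heads. As deposited, the intensities ran from 0.793 to 7.84 in single-housed heads and from 1.64 to 13.4 in group-housed heads. The groups overlapped, and in the fit without a filter the difference was -0.17 (SE 0.21, limma adjusted p 0.9).

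The amine receptors were represented by Ir76a, Ir41a and Ir92a. Ir76a, which responds to amines, had signals of 7.28, 7.18 and 7.25 in single-housed heads, against 7.63, 7.45 and 7.27 in group-housed heads. The lowest group-housed array lay just below the highest single-housed one. The mean was 7.24 ± 0.05 in single-housed heads and 7.45 ± 0.18 in group-housed heads (SD, n = 3), and the difference of -0.21 (SE 0.11, 95% interval -0.47 to 0.04) had the smallest unadjusted p among the 13 co-receptor and antennal probe sets tested (limma p 0.0855, adjusted p 0.661). This is the only member whose probe set carries the suffix _s_at, which marks probes shared by several transcripts, and its gene overlaps CG14102 in the gene table, so its signal may not be that of Ir76a alone.

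Ir41a, a polyamine receptor, was measured by 3 probe sets, of which 1 was tested. That probe set read 4.91, 4.46 and 5.18 in single-housed heads and 5.31, 4.51 and 5.01 in group-housed heads, with wide spread in both groups. Its difference was -0.09 (SE 0.26), and the other two probe sets stood at -0.09 and -0.10 below the cutoff. Ir92a, an ammonia receptor, read 4.59, 5.30 and 4.31 in single-housed heads and 5.03, 4.50 and 4.58 in group-housed heads. The difference of its tested probe set was 0.03 (SE 0.28), against -0.32 for its other probe set below the cutoff, so the Ir92a probe sets disagreed in sign. That second probe set read 4.41, 4.11 and 4.54 in single-housed heads against 4.72, 4.69 and 4.60 in group-housed heads, without overlap (limma p 0.0695, adjusted p 0.701 without a filter).

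Among the thermo- and hygroreceptors, Ir68a, which takes part in sensing moist air, had signals of 5.60, 5.80 and 5.86 in single-housed heads, against 5.65, 5.62 and 5.62 in group-housed heads. The group-housed arrays were tightly grouped (SD 0.02) between the lowest and the middle single-housed array, and the difference was 0.12 (SE 0.12, limma adjusted p 0.827). Ir21a, the cool receptor of the arista, read 4.86, 4.20 and 4.67 in single-housed heads and 4.90, 4.66 and 5.13 in group-housed heads. Its difference was -0.32 (SE 0.23, 95% interval -0.84 to 0.19, limma adjusted p 0.742). The size followed 1 array, since without single-housed replicate 2 it was -0.13. The single-housed mean of Ir21a, 4.57, lay below the cutoff, and its other probe set, below the cutoff, stood at -0.14.

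Ir40a, a receptor of dry air, read 5.25, 4.43 and 4.93 in single-housed heads and 4.70, 4.94 and 5.07 in group-housed heads. The single-housed arrays spanned the whole group-housed range, and the difference of -0.03 (SE 0.23) changed sign under 4 of 15 alternatives. The other Ir40a probe set, just below the cutoff, stood at 0.23. Ir93a, which joins Ir25a in both temperature and humidity sensing, had 2 probe sets, both below the cutoff and of opposite sign (0.23 and -0.31). The probe set at -0.31 had separate groups, at 4.13, 4.17 and 4.15 in single-housed heads against 4.92, 4.23 and 4.24 in group-housed heads (limma p 0.145 without a filter). Over all 10 tested antennal probe sets 4 lay above 0 and 6 below, with a median of -0.03 and a range of -0.32 to 0.25. That median moved with 1 array, to -0.09, 0.10 and 0.09 when single-housed replicate 1, single-housed replicate 2 or group-housed replicate 3 was left out. It was 0.06 with the scaling as deposited, where the median of all probe sets was 0.10.

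**Figure D2:**
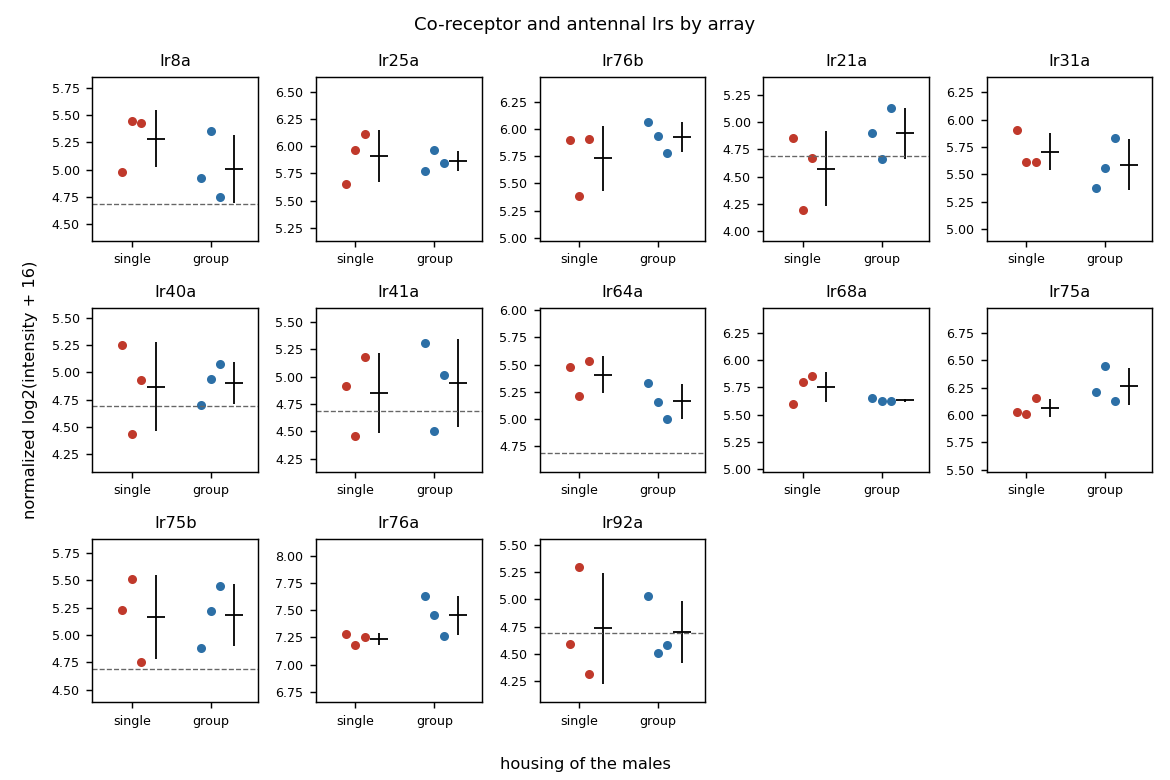
Normalized log2(intensity + 16) on each array (vertical axis) for the 3 co-receptor and 10 antennal Ir probe sets that were tested, with single-housed arrays (left, red) and group-housed arrays (right, blue), replicates 1 to 3 from left to right. Black bars give mean ± SD (n = 3), the dashed line is the cutoff of 4.69, and the groups overlapped in all 13 panels.

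The other IRs held both tested members whose groups were separate, and Ir68b had the largest difference in size of the 19 tested. Without the cutoff, groups were separate for 2 of 18 antennal and 3 of 39 other probe sets, against 12.8% of all probe sets. Ir68b is a divergent member for which no role is stated here. Its signal was 5.01, 5.25 and 5.14 in single-housed heads, against 4.63, 4.59 and 4.40 in group-housed heads. All single-housed arrays lay above the cutoff and above all group-housed arrays, which lay below it. As deposited, the intensities were 16.8, 22.0 and 21.3 in single-housed heads and 7.88, 6.09 and 7.15 in group-housed heads. The mean was 5.13 ± 0.12 in single-housed heads and 4.54 ± 0.12 in group-housed heads (SD, n = 3).

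The difference of Ir68b was 0.59 (SE 0.17, 95% interval 0.21 to 0.97). It had an unadjusted limma p of 0.00648 and an adjusted p of 0.441, so it did not pass the threshold. The exact permutation test of 3 arrays against 3 cannot go below p = 0.1. Since the probe set passed the cutoff through the single-housed arrays, the separation, the interval and the p-values are given as a description. In the fit without a filter its adjusted limma p was 0.505. The difference was positive under all 15 alternatives that tested it, from 0.53 to 0.64 with 1 array left out, and adjusted p ran from 0.254 to 0.969. Its size depends on the added intensity, with 1.31 for a pseudocount of 1 and 0.24 for 64.

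Ir7g, from a tandem cluster of IR genes, went the other way. It read 4.11, 4.83 and 4.83 in single-housed heads, against 4.95, 5.17 and 4.95 in group-housed heads. The single-housed arrays lay below all group-housed ones, with replicate 1 far below the other two, and the single-housed mean of 4.59 was below the cutoff. Since Ir7g passed the cutoff through the group-housed arrays, its separation, interval and p-value are likewise given as a description. The difference was -0.44 (SE 0.23, 95% interval -0.96 to 0.09, limma adjusted p 0.668), and -0.19 without single-housed replicate 1.

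Ir52a and Ir52c belong to a cluster known from taste neurons, including foreleg neurons that act in male courtship. Ir52a read 4.91, 4.63 and 4.64 in single-housed heads and 4.93, 4.85 and 4.80 in group-housed heads, a difference of -0.14 (SE 0.17). Ir52c read 4.61, 4.78 and 4.91 in single-housed heads and 4.66, 4.65 and 5.00 in group-housed heads, with a mean of 4.77 in each group. Both lay close to the cutoff with overlapping groups, and their neighbours Ir52b and Ir52d lay below it. Ir67b and Ir67c, neighbours of each other, had differences of 0.20 (SE 0.20) and -0.07 (SE 0.17), also with overlapping groups. The group-housed mean of Ir67b, 4.67, lay below the cutoff, which it passed through the single-housed arrays, so its difference is given as a description. The 6 tested members of this class had a median of -0.04, which was 0.01 with the scaling as deposited and 0.03 over all 39 probe sets. It was 0.03 or 0.04 when single-housed replicate 1 or group-housed replicate 3 was left out. Ir68b, Ir67b and Ir7g, which passed the cutoff through 1 group, are among these 6, so the median is a description.

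**Figure D3:**
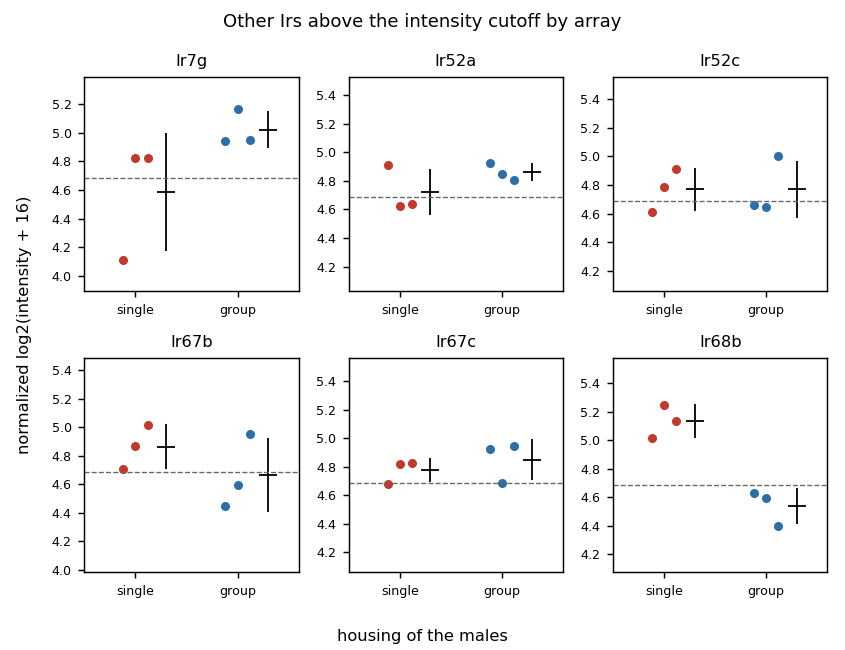
Normalized log2(intensity + 16) on each array (vertical axis) for the 6 other Ir probe sets above the cutoff (dashed line, 4.69), with single-housed arrays on the left, group-housed arrays on the right and black bars for mean ± SD (n = 3). Ir68b is higher on all single-housed arrays and Ir7g lower on all of them, and the other 4 panels overlap.

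The remaining 33 probe sets of this class lay below the cutoff, with 6-array means from 4.15 to 4.66, near the floor of 4. Their median deposited intensity was 4.83 and the highest on any array was 19.2. Of these 33, 18 lay above 0 and 15 below, where 46.6% of all probe sets lay above 0 without a cutoff. In that fit, which tested all 18769 probe sets, 3 of the 60 members reached unadjusted p 0.05 in limma, against 7.45% of all probe sets, and 0 reached adjusted p 0.05, against 0.00533%. The groups of 5 members did not overlap, against 12.8% of all probe sets. Ir68b was higher in single-housed heads, and Ir7g, Ir56d and 1 probe set each of Ir92a and Ir93a were lower.

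Among these 33 probe sets the smallest p without a filter belonged to Ir94g and Ir56d. Ir94g read 4.99, 4.50 and 4.90 in single-housed heads and 4.13, 4.14 and 4.53 in group-housed heads, a difference of 0.53 (limma p 0.0196, adjusted p 0.576 without a filter). Ir56d, which is known from labellar taste neurons that respond to fatty acids and carbonation, read 4.16, 4.16 and 4.23 in single-housed heads and 4.34, 5.00 and 4.74 in group-housed heads, a difference of -0.51 (limma p 0.0205, adjusted p 0.583 without a filter). The groups of Ir94g overlapped slightly and those of Ir56d were separate. Next among the 33 came Ir10a at 0.30, Ir7d at -0.34, Ir67a at -0.29 and Ir20a at 0.28, with unadjusted p from 0.0963 to 0.142. The second Ir10a probe set stood at -0.20, opposite in sign to the first.

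**Figure D4:**
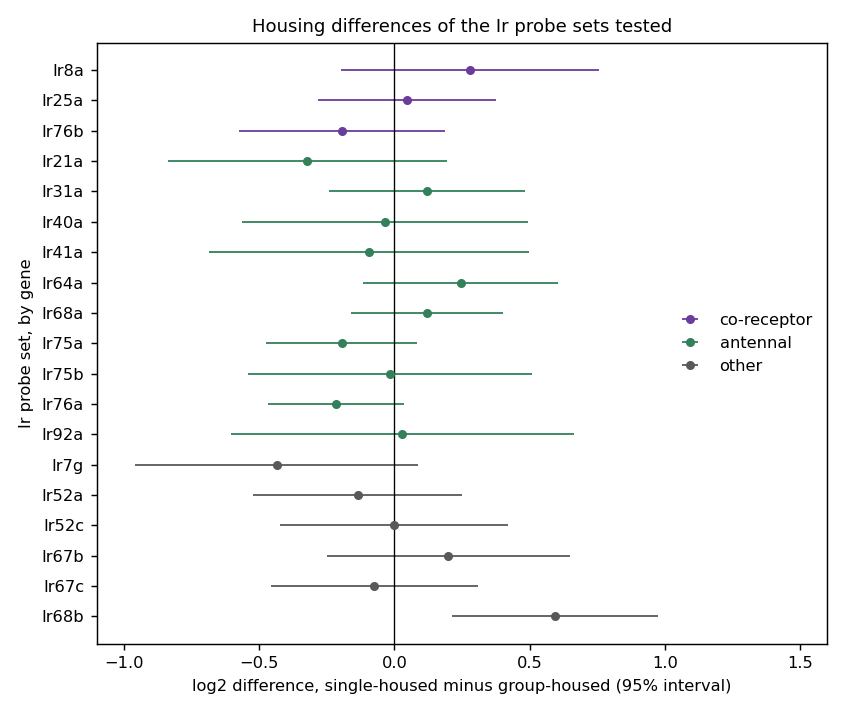
Log2 difference between single-housed and group-housed heads (horizontal axis) with its 95% interval from limma for the 19 Ir probe sets tested, coloured by class. The interval of Ir68b, 0.21 to 0.97, lies above 0 and the other 18 include 0. Ir68b passed the cutoff through its single-housed arrays, so its interval is a description. None passed after adjustment over 13138 probe sets.

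Position and probe design gave a further view of the family. The gene table lists 66 Ir genes, all 53 measured genes appear in it under the same symbol, and the 13 others are not analysed here, Ir75d among them because its probe set is shared with COX6AL2. In 9 runs of neighbouring genes, with no other protein-coding gene between them, lay 27 Ir genes, of which 22 were measured and 7 passed the cutoff. Those 7 were Ir52a, Ir52c, Ir67b, Ir67c, Ir75a, Ir75b and Ir7g. Within the run of Ir94f, Ir94g and Ir94h the differences spread from -0.09 to 0.53, and within Ir56b, Ir56c and Ir56d from -0.51 to 0.13. Both measured members of the Ir75 run and all 3 of the run of Ir94a, Ir94b and Ir94c lay below 0, those of the Ir94 run from -0.25 to -0.09, so runs with a single sign and with both signs occurred. Of the 6 genes with more than 1 probe set, 2 (Ir21a and Ir41a) had the same sign in all of them, while Ir10a, Ir40a, Ir92a and Ir93a did not.

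In the gene table, 14 of the measured genes overlap another gene, among them Ir8a, Ir21a and Ir93a with a microRNA or antisense gene and Ir76a, Ir47a and Ir85a with protein-coding genes. Whether the overlapping gene adds to their signal was not tested.

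Markers of the antenna showed that tissue in every sample and varied between arrays of the same group. All 17 antenna markers measured passed the cutoff. Their summed signal was 18340 to 22680 in single-housed heads and 18220 to 24740 in group-housed heads. The brightest of the 17 markers weighs most in that sum, with a mean log2 signal of 13.18 against 11.85 for the next. The housing difference of that brightest marker was 0.02 (SE 0.06). Quantile normalization sets values by rank, and it gave this marker 13.19 on both single-housed replicates 1 and 2 and 13.23 on both group-housed replicates 1 and 2. As deposited, its intensities ran from 9142 to 10079 in single-housed heads and from 7886 to 9521 in group-housed heads. In the housing comparison 15 of the 17 lay below 0 and 2 above, with a median of -0.20 against -0.02 for all probe sets (-0.10 against 0.10 with the scaling as deposited), and limma called 0 at adjusted p 0.05 and 0 at unadjusted p 0.05. Averaged over the 17 markers, the deviation of each array from a gene's own mean was -0.22, -0.25 and 0.17 in single-housed heads and 0.33, 0.24 and -0.27 in group-housed heads. Single-housed replicates 1 and 2 and group-housed replicate 3 were thus low in antennal markers and the other arrays high, so the spread within each group exceeded the difference between the groups.

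Orco, the co-receptor of the odorant receptor family, showed this array pattern, with 7.45, 7.51 and 8.07 in single-housed heads and 8.22, 8.00 and 7.62 in group-housed heads. Its difference was -0.27 (SE 0.19, limma adjusted p 0.747). Obp83b, an odorant binding protein of the antenna, had the smallest p of the 17 markers, with a difference of -0.36 (SE 0.17, limma adjusted p 0.624). Amt, an ammonium transporter of coeloconic sensilla, was at -0.20 (SE 0.19), Obp84a, an odorant binding protein of those sensilla, at -0.25 (SE 0.26) and the pheromone-related lush at -0.45 (SE 0.23). The antennal IRs had mean deviations of 0.06, -0.08 and -0.03 in single-housed heads and 0.05, -0.05 and 0.06 in group-housed heads. This mean did not follow the order of the antenna markers, and of its 10 probe sets 4 passed the 50% cutoff. Of those 4, the brightest, Ir76a and Ir75a, were highest on group-housed replicates 1 and 2, where the antenna markers were highest too. Ir31a and Ir68a were not. The co-receptors had deviations of -0.11, -0.02 and 0.20 in single-housed heads and -0.03, 0.13 and -0.16 in group-housed heads, with the sign of the antenna markers on 5 of the 6 arrays and the opposite sign on group-housed replicate 1. The part of antennal tissue in the IR values was not tested.

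Markers of taste organs, which house many of the other IRs, were below 0 in 10 of 12 genes (median -0.20, or -0.12 with the scaling as deposited). Their summed signal was 5373 to 6310 in single-housed heads and 7345 to 8037 in group-housed heads, without overlap. Obp56g and Obp49a made up 93.1% to 94.1% of that sum in single-housed heads and 93.6% to 95% in group-housed heads. The other 10 genes summed to 344.5 to 372.1 in single-housed heads and 382.4 to 496.1 in group-housed heads. Obp19b weighs most in this remainder, with a mean log2 signal of 8.02 against 5.34 for the next brightest gene. It read 7.66, 7.80 and 8.06 in single-housed heads and 8.25, 8.47 and 7.89 in group-housed heads, with overlapping groups. Obp56g and Obp49a, odorant binding proteins of taste bristles, stood at -0.44 (SE 0.08, limma adjusted p 0.179) and -0.39 (SE 0.08, adjusted p 0.3). Of the 12, these 2 alone reached unadjusted p 0.05, against 3.67% of all probe sets lower in single-housed heads at that level, and none passed the adjusted threshold. Of the 6 other IRs tested, 2 lay above 0 and 4 below. Among these 6, Ir68b, Ir67b and Ir7g had passed the cutoff through 1 group, so the counts are a description. The part of taste tissue in their values was not tested.

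The ionotropic glutamate receptors, the synaptic relatives of the IRs, had 13 genes measured, all above the cutoff, with 5 above 0, 8 below and a median of -0.04, which was 0.03 with the scaling as deposited. GluRIB had the smallest p of them, with 5.22, 4.78 and 5.37 in single-housed heads against 6.10, 5.40 and 5.43 in group-housed heads, a difference of -0.52 (SE 0.23, limma adjusted p 0.611). Its groups were separate, as were those of clumsy and CG11155, all 3 lower in single-housed heads, where 7.95% of all probe sets were lower without overlap. None of the 13 reached unadjusted p 0.05 or adjusted p 0.05. Of 16 neuron marker genes 13 lay below 0 and the median was -0.08, which turned to 0.09 with the scaling as deposited and 0.01 with median centring, and 1, Syn, was lower at unadjusted p 0.05, as were 3.67% of all probe sets.

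**Figure D5:**
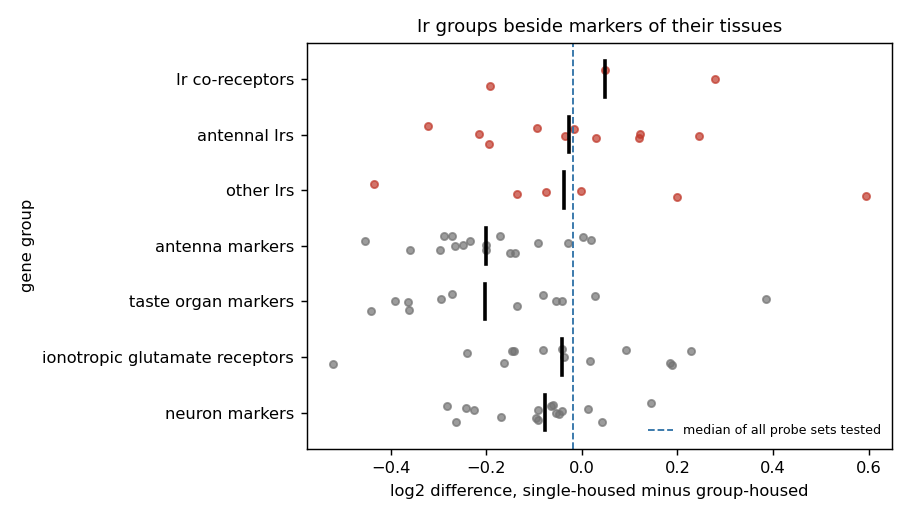
Log2 difference, single-housed minus group-housed (horizontal axis), for the tested Ir probe sets by class (red) and for genes of lists that describe their tissues and relatives (grey), with black bars at the medians. The median of all probe sets tested, -0.02, is the dashed line; antenna and taste organ markers have medians of -0.20 and the antennal Irs -0.03, and with the scaling as deposited these were -0.10, -0.12 and 0.06.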

How the data were processed

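Heads of single-housed and group-housed males were profiled on 1-colour Affymetrix arrays (biotin label and Trizol extraction, per the labels' protocols). The deposited values are linear signal intensities of probe sets; how the authors summarised, background-corrected or scaled them is not given in the sources used here. Array medians ran from 24.2 to 31.6 and no array was left out. The number of arrays limits the precision, since an intensity has no count behind it. The p-values measure the spread between these arrays.

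Of 18952 probe sets, 183 controls were removed. Of the rest, 13647 had 1 gene in the platform annotation, 402 several and 4720 none. From the deposited intensities log2(intensity + 16) was computed, and because array medians differed by 0.24 (limit 0.2) the arrays were quantile normalized. The lowest 30% by mean were left out and 13138 probe sets were fitted with limma 3.58.1 in R 4.3.3 (lmFit, eBayes with an intensity trend, Benjamini-Hochberg, adjusted p 0.05, 2-sided). The fit was tested on simulated data with planted shifts larger than any Ir difference of the main fit, so that test does not cover differences of the size reported here. List genes entered through their brightest probe set.

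Alternative fits used array weights, a replicate block, the scaling as deposited, median centring, a pseudocount of 1 or 64, no filter or one at 50%, eBayes without trend, robust eBayes, or left each array out. All co-receptor and antennal members are named, the others where they passed the filter, and the 6 with the smallest p below it; up to 5 genes per list with the smallest p may be named, plus Orco. Amt and Obp84a were named after their values were seen. Members and lists were chosen with earlier results of these data known. Gene names came from the annotation and were checked by gene ID against the table of assembly Release 6 plus ISO1 MT; no coordinates are given because the array's build is not stated.

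The lists of fat body, gut protease and male reproductive tract markers had medians of 0.56, 2.42 and 0.01 over 7 tested genes each. List medians under other scalings were added after seeing the data.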

Additional observations from a re-analysis of the deposited data

How the results depend on the processing

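No Ir probe set passed adjusted p 0.05 in limma under any of the 16 alternatives, in which the count over all probe sets, 2 as reported, was 78 with the scaling as deposited, 11 with median centring, 90 with a pseudocount of 64, 135 without group-housed replicate 2, 0 without the trend or single-housed replicate 3, and 1 to 32 in the rest. The count at unadjusted p 0.05, 1 as reported, was 3 without a filter, 0 with the filter at 50%, 2 with array weights and 1 to 2 with 1 array left out. The count of members without overlap, 2 as reported, was 4 of 19 with median centring (9.51% of all probe sets), 5 of 60 without a filter (12.8%), 0 of 6 with the filter at 50% (16.1%) and 3 to 7 with 1 array left out (19.1% to 26.3%), where 2 arrays against 3 separate more readily. The 7 came when replicate 1 of the single-housed arrays (23.5%) or replicate 3 of the group-housed arrays (24%) was left out. The antennal median was 0.0552 with the scaling as deposited, 0.0276 with a pseudocount of 64, -0.0934 without a filter and -0.0854 to 0.0992 with 1 array left out. The co-receptor and other medians stayed within the spread between arrays, at -0.0540 to 0.178 and -0.147 to 0.0433 with 1 array left out; with the filter at 50% no other Ir was left to give a median.

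Of the 19 tested members, 13 kept their sign under every alternative that tested them. The sign turned for Ir40a (0.0306 as deposited, 0.0196 with a pseudocount of 64), Ir52c (0.0417 as deposited, 0.0062 and 0.0118 with pseudocounts of 1 and 64, 0.0164 with array weights), Ir75b (0.0862, 0.0364 with a pseudocount of 64, 0.112 with array weights) and Ir92a (-0.0072 with median centring, -0.0594 with a pseudocount of 1). With 1 array left out the ranges were -0.054 to 0.178 for Ir25a, -0.22 to 0.181 for Ir40a, -0.331 to 0.102 for Ir41a, -0.0744 to 0.114 for Ir52c, -0.19 to 0.194 for Ir75b and -0.0719 to 0.244 for Ir92a. The cause was not tested. The replicate numbers were not shown to pair the arrays. Same-numbered arrays deviated with correlations of 0.03, 0.11 and 0.33, and arrays of different numbers with -0.25 to 0.16, which leaves pairing undecided. With the replicate block 0 members passed adjusted p 0.05, 1 had unadjusted p 0.05 and the antennal median was -0.0258; over all probe sets the block gave 32 calls, against 2.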

Other observations

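The probe set that the annotation assigns to both COX6AL2 and Ir75d read 5.47, 5.36 and 5.47 in single-housed heads and 5.67, 5.85 and 5.33 in group-housed heads. Its difference was -0.18 (SE 0.16, limma adjusted p 0.796), and the share of each gene in it is not known.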
